A study of Saccharomyces cerevisiae with 24 samples.

Results

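The transcripts described here come from 39 nuclear genes that encode the respiratory chain and the ATP synthase of the yeast mitochondrion. They were taken by systematic name from a list of cytochrome oxidase, bc1 complex, cytochrome c, succinate dehydrogenase, ATP synthase and NADH dehydrogenase genes, and all 39 were found among the 7127 features of the count table, of which 6600 are mRNAs. The list holds 3 NADH dehydrogenase genes, 4 genes of complex II, 9 of complex III, 2 of cytochrome c, 9 of complex IV and 12 of the ATP synthase. All 39 had enough counts to be tested, without regard to how they moved.

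In budding yeast, electrons from NADH and succinate pass through ubiquinone to complex III, then through cytochrome c to complex IV, which reduces oxygen. The proton gradient that builds up along the way drives the ATP synthase. Glucose represses many of these genes, and they depend on heme and oxygen through the activator Hap1 and the Hap2/3/4/5 complex, which binds the sequence CCAAT. Cells make another form of cytochrome c and of cytochrome oxidase subunit V when oxygen is low.

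The study was built around Npl3, an RNA-binding protein of the SR type found on mRNA from transcription to export. All strains were MATa W303 npl3-shuffle strains with the alleles ade2-1, can1-100, his3-11,15, ura3-1, trp1-1 and leu2 with the lesions 3 and 112, and with the GAL+ phenotype, and each carried its NPL3 allele on the plasmid pRS315. The alleles were npl3-F162Y (first RNA recognition motif), npl3-P196D-A197D (the linker between the motifs), npl3-F245I (second motif) and wild-type NPL3, and npl3-P196D-A197D is called the linker mutant below. Cultures in rich medium were either moved to 37 °C for 1 h at mid-log phase or left at 30 °C, which gave 8 groups of 3 libraries each. The names give replicate numbers but not whether replicates were separate cultures, so the p-values rest on a spread that may be technical.

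Each library had 15.8 to 34.7 M counts assigned to genes, and the 39 genes took 1.13 to 1.39% of them. Mitochondrially encoded features received 41 to 452 counts per library, so the subunits made inside the mitochondrion are not described. In CPM (counts scaled to each library's TMM-adjusted size), 4 genes specific to MATa cells (MFA1, MFA2, STE2 and BAR1) lay between 40.6 and 889, and those of the other mating type, MF(ALPHA)1 and STE3, between 1.23 and 21.9. NPL3 mRNA averaged 255, 299, 342 and 192 CPM in npl3-F162Y, the linker mutant, npl3-F245I and NPL3 at 37 °C, and 272, 330, 212 and 204 CPM at 30 °C. Such point mutations leave the transcript in place, so its level checks no label. NPL3 replicate 1 at 37 °C lay apart from the other replicates on the first principal component (1.29, against 11.2 and 11.4), and replicate 2 of every strain at 37 °C carries a sample number of another series than the rest. The counts at 37 °C against NPL3, for the shift and for the interaction are also given without replicate 1, where it enters them, and without the libraries of the other numbering.

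Sequence upstream of the genes is given first because most of the members share one element there. In the 300 bases before the start codon, CCAAT was present on either strand in 33 of the 39 genes (84.6%), against 41.8% of 6001 nuclear protein-coding genes. The longer form ACCAATNA, which contains CCAAT, was present in 15 (38.5%), against 5.22% of all. COX4, COR1, CYT1, CYC1, CYC7 and NDE2 held no CCAAT in this window, and bases further upstream were not searched for any motif. The stretches below were read from the RefSeq sequence of build R64, which is that of the reference strain and not of W303, 5′ to 3′ on the strand of the gene. Capitals mark ACCAATNA or CCAAT or, where the element faces the other way, its reverse complement. They are shown for members described below, with ATP4, of the ATP synthase stalk, as a further example of the longer form.
COX5A, chrXIV:531545-531569, plus strand: caaaaatcgtCCAATagacgttttc
COX5A, chrXIV:531570-531594, plus strand: ctcgtttgtgATTGGccctacgttt
COX5B, chrIX:155139-155166, plus strand: taaacaatagACCAATTAtttcaattta
NDI1, chrXIII:30018-30045, minus strand: attcattcggACCAATCAtatgaaggca
SDH1, chrXI:171370-171394, minus strand: ggcctcttctATTGGttgtttgttt
RIP1, chrV:107002-107029, plus strand: tccataacggACCAATCAgcgttttgcg
COX6, chrVIII:209478-209505, plus strand: aaaagggaccTAATTGGTccggtcaaag
ATP4, chrXVI:408917-408944, minus strand: tcaatattgaACCAATCAcgacgctttt

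The same windows were searched on both strands for 3 further motifs. A Hap1 consensus (CGG, 3 bases of any kind, TA, 1 base of any kind, CGG) occurred in QCR6 alone among the 39 genes (2.56%) and in 0.133% of all windows, and it stands there at both of the places shown. Windows were not cut at neighbouring genes: that of QCR6 runs 50 bases into PHO4, and its first place shown lies in those bases. The COX6 window shares 171 bases with YHR050W-A. Further windows overlap genes too, for example that of ATP2 by 170 bases with DMO1, and all were kept in the motif counts. AGGGG, the core of the general stress element, occurred in 17 members (43.6%, against 22.2% of all). ATTGTT, the core of the sequence bound by the hypoxic repressor Rox1, occurred in 17 members (43.6%, against 34.1%). CYC7, the hypoxic cytochrome c gene, had AGGGG at the positions shown, and capitals again mark the motif. A match describes the letters only.
QCR6, chrVI:225039-225068, minus strand: ggcggcctgCCGGTACATCCGtcacctaca
QCR6, chrVI:224974-225003, minus strand: agcacgttcCGGGCATATCGGactggggcg
CYC7, chrV:80239-80263, minus strand: tcccccgccgAGGGGtcttttccca
CYC7, chrV:80155-80179, minus strand: agtggccgcaAGGGGcaaagacaaa

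Levels of the members differed widely. In NPL3 at 30 °C, per kilobase of coding length, CYC1 was the highest at 2284 ± 38.8 CPM per kb (SD, n = 3), and NDE2, an external NADH dehydrogenase gene, was the lowest at 2.80 ± 0.637. The hypoxic isoform genes COX5B (81.6 ± 6.60) and CYC7 (114 ± 15.4 CPM per kb) came next to NDE2. All other members lay between SDH1 at 203 ± 5.12 and QCR9 at 1250 ± 27.0 CPM per kb. No member had a near-identical copy among the coding sequences of the reference or overlapped a gene annotated there.

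At 30 °C most members were lower in each of the 3 mutants than in NPL3. In npl3-F162Y 32 of 39 were lower and 3 higher at an adjusted p under 0.05 (edgeR, quasi-likelihood F-test, Benjamini-Hochberg), where 38.6% of the 6518 genes tested were lower and 29.8% higher, 68.4% in all. In the linker mutant 25 were lower and 1 higher (31.7% and 24.1% of all genes, 55.7% in all). In npl3-F245I 34 were lower and 1 higher (33.3% and 24.5% of all genes, 57.7% in all). The median log2 fold change of the members was -0.29, -0.17 and -0.37 in npl3-F162Y, the linker mutant and npl3-F245I, against a median of -0.04 over all genes tested in each. These comparisons share the NPL3 libraries. Changes were moderate in size: 2 members were at least 1.5-fold lower in npl3-F162Y, 0 in the linker mutant and 4 in npl3-F245I. As shares of all mRNA in bulk cultures, these values cannot separate fewer transcripts per cell from a rise of other transcripts.

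**Figure D1:**
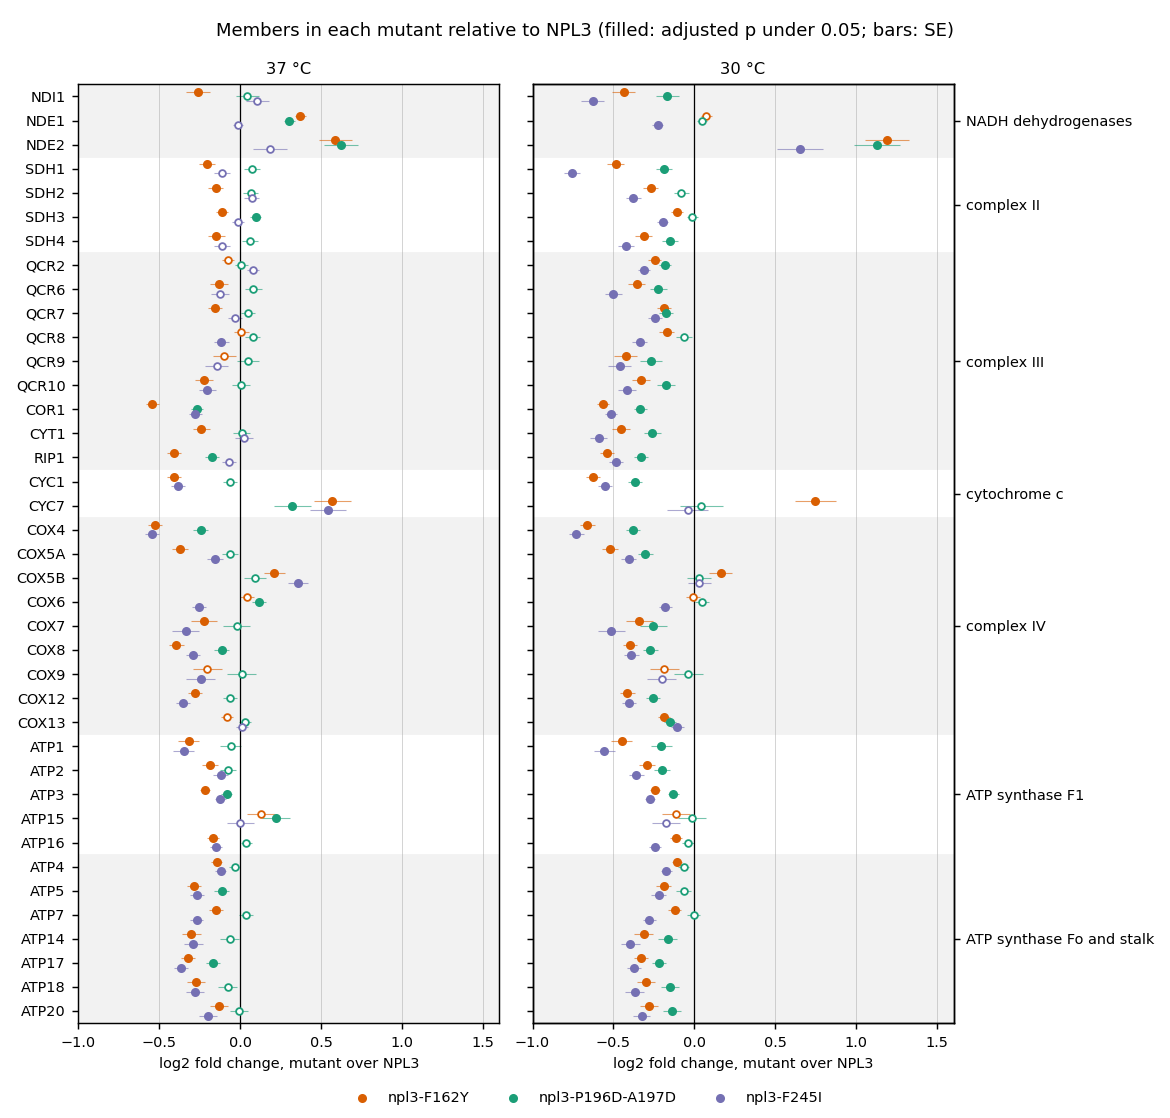
Log2 fold change of each of the 39 members, mutant over NPL3, at 37 °C (left) and 30 °C (right), with members grouped by complex and bars for the SE. Filled points passed an adjusted p of 0.05. At 30 °C the points of all 3 mutants lie mostly left of 0, and at 37 °C those of the linker mutant gather around 0, with a median of 0.01.

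Complex IV transfers electrons to oxygen. COX4, a nuclear subunit needed for its assembly (YGL187C, chromosome VII, 149704 to 150171), fell in every mutant at 30 °C. Its libraries gave 242, 248 and 248 CPM in npl3-F162Y, 305, 310 and 280 CPM in the linker mutant and 228, 244.5 and 231 CPM in npl3-F245I, against 378, 392 and 398 CPM in NPL3. No mutant library reached the lowest NPL3 library, and the linker mutant lay between the others and NPL3. The folds were 1.58, 1.30 and 1.66 lower in the order of the mutants just given (edgeR adjusted p = 4.21e-12, 1.32e-07 and 1.29e-12). Of the 9 members of the complex, 6, 6 and 7 were lower in npl3-F162Y, the linker mutant and npl3-F245I. COX6, a small structural subunit, was an exception in npl3-F162Y (log2 fold change -0.01) and the linker mutant (0.04), neither of which passed, but fell in npl3-F245I (-0.18, adjusted p = 0.00104 by edgeR). COX9, another small subunit, passed in no mutant at 30 °C.

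Complex III passes electrons from ubiquinol to cytochrome c, and its 9 members were all lower in npl3-F162Y and npl3-F245I at 30 °C. In the linker mutant 8 of 9 were lower, the other being QCR8, a small subunit. COR1, a core subunit (YBL045C, chromosome II, 134143 to 135516), gave 513, 508 and 506 CPM in npl3-F162Y, 572, 620 and 598 CPM in the linker mutant and 542, 515 and 524 CPM in npl3-F245I, against 762, 752 and 745 CPM in NPL3. The groups did not overlap, and the folds were 1.48, 1.26 and 1.43 lower. The genes of cytochrome c1, CYT1, and of the Rieske iron-sulfur protein, RIP1, fell likewise, with log2 fold changes of -0.45 and -0.54 in npl3-F162Y, -0.26 and -0.33 in the linker mutant, and -0.59 and -0.49 in npl3-F245I.

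Complex II, succinate dehydrogenase, links the chain to the citric acid cycle. Its 4 members were all lower in npl3-F162Y and npl3-F245I, and 2 were in the linker mutant. SDH1, which encodes the flavoprotein subunit (YKL148C, chromosome XI, 169207 to 171129), fell furthest of all members in npl3-F245I. Its level was 279, 279 and 279 CPM in npl3-F162Y, 346, 358 and 326 CPM in the linker mutant and 239, 231 and 225 CPM in npl3-F245I, against 380, 399 and 393 CPM in NPL3. The 4 strains formed separate bands without overlap. The folds were 1.40 (adjusted p = 8.13e-09), 1.14 (0.00292) and 1.69 lower (7.11e-12), all by edgeR.

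Yeast has no proton-pumping complex I and oxidises NADH through single-subunit enzymes. NDI1, which takes NADH of the matrix (YML120C, chromosome XIII, 28266 to 29807), stood at 237, 232 and 238 CPM in npl3-F162Y, 274, 299 and 278 CPM in the linker mutant and 210, 215 and 194 CPM in npl3-F245I, against 335, 315 and 307 CPM in NPL3. It was 1.35-fold and 1.54-fold lower in npl3-F162Y and npl3-F245I. The fold of 1.12 in the linker mutant just passed (adjusted p = 0.0496 by edgeR) and was lost in 11 of 16 alternatives, among them without NPL3 replicate 1 or 2 or the mutant's replicate 1 or 3 (adjusted p up to 0.177). NDE2, which takes cytosolic NADH (YDL085W, chromosome IV, 303211 to 304848), moved the other way: 10.9, 9.68 and 10.3 CPM in npl3-F162Y, 9.29, 10.5 and 9.72 CPM in the linker mutant and 7.68, 6.96 and 6.70 CPM in npl3-F245I, against 3.53, 5.62 and 4.62 CPM in NPL3. Each mutant library exceeded each NPL3 library, and the folds were 2.28, 2.19 and 1.57 higher on 106 to 122 counts per NPL3 library. NDE1, the far more abundant external enzyme, did not pass in npl3-F162Y and the linker mutant (log2 fold changes 0.07 and 0.05) and fell in npl3-F245I (-0.23, adjusted p = 2.45e-06 by edgeR).

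The ATP synthase uses the proton gradient to make ATP. Of its 12 members 11, 7 and 11 were lower in npl3-F162Y, the linker mutant and npl3-F245I, and none was higher. ATP1, the alpha subunit (chromosome II, 37053 to 38690), was the furthest down of them in npl3-F162Y and npl3-F245I. Its level was 670, 645 and 664 CPM in npl3-F162Y, 785, 823 and 738 CPM in the linker mutant and 621, 627 and 591 CPM in npl3-F245I, against 885, 912 and 905 CPM in NPL3. No mutant library reached the lowest NPL3 library. ATP17, subunit f of the membrane part, had log2 fold changes of -0.33, -0.22 and -0.38 in the same order, all of which passed. ATP15, the epsilon subunit, passed in none of the mutants at 30 °C.

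Cytochrome c is made from CYC1 in air and from CYC7 at low oxygen. CYC1 (YJR048W, chromosome X, 526335 to 526664) gave 491, 483 and 491 CPM in npl3-F162Y, 562, 630 and 565 CPM in the linker mutant and 514, 504 and 523 CPM in npl3-F245I, against 740, 758 and 764 CPM in NPL3. It was 1.54-fold, 1.29-fold and 1.47-fold lower, and no library of a mutant overlapped those of NPL3. CYC7 (YEL039C, chromosome V, 79636 to 79977) was higher in npl3-F162Y, at 67.4, 62.5 and 67.1 CPM, against 44.8, 38.0 and 34.4 CPM in NPL3 (1.68-fold, adjusted p = 2.63e-05 by edgeR). In the linker mutant and npl3-F245I CYC7 lay within the range of the NPL3 libraries, with log2 fold changes of 0.04 and -0.04 that did not pass.

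**Figure D2:**
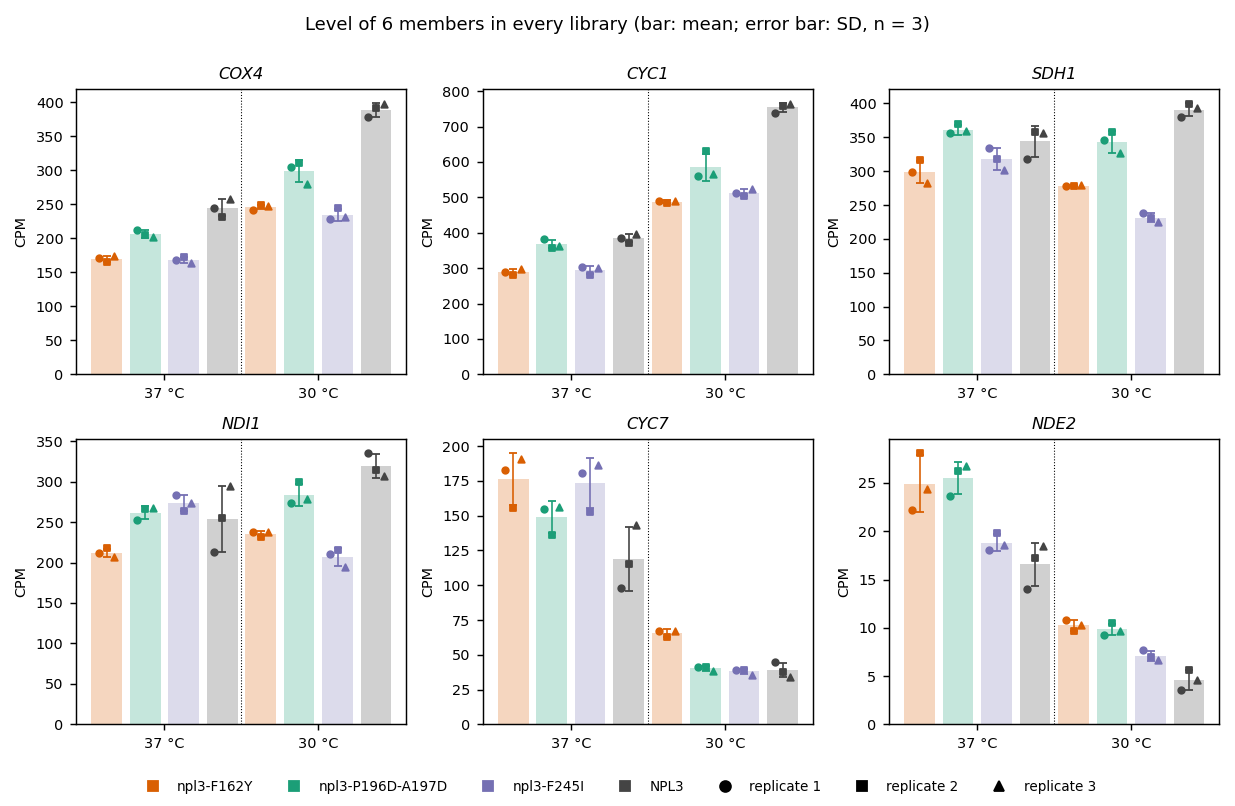
Level of COX4, CYC1, SDH1, NDI1, CYC7 and NDE2 in CPM in each library, with 37 °C left and 30 °C right in each panel, bars for the mean, error bars for the SD (n = 3) and symbols for the replicates. COX4 and CYC1 are lower at 37 °C in every strain, CYC7 and NDE2 are higher, and SDH1 and NDI1 of npl3-F245I are lowest at 30 °C but not at 37 °C.

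At 37 °C more members were lower than higher in npl3-F162Y and npl3-F245I, and most did not pass in the linker mutant. In npl3-F162Y 28 were lower and 4 higher (30.8% and 28% of all genes, 58.8% in all). In the linker mutant 7 were lower and 6 higher (22.4% and 21.3% of all genes, 43.7% in all), shares close to those over all genes. In npl3-F245I 22 were lower and 2 higher (26.5% and 24% of all genes, 50.6% in all). The medians were -0.18, 0.01 and -0.13 in this order, against -0.01, -0.02 and -0.02 over all genes. Without NPL3 replicate 1 the calls were 27 lower and 4 higher in npl3-F162Y, 6 and 2 in the linker mutant and 24 and 2 in npl3-F245I. Leaving out the 4 libraries with another number series, they were 26 and 5, 7 and 4, and 21 and 2. With only the compared groups fitted they were 15 and 3, 2 and 2, and 15 and 2. The total of 13 in the linker mutant fell to 8 without NPL3 replicate 1, NPL3 replicate 2 or its own replicate 1, and to 7 without its own replicate 3.

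COX4 remained lower in all mutants at 37 °C. At the higher temperature it gave 170, 165 and 174 CPM in npl3-F162Y, 213, 205 and 202 CPM in the linker mutant and 168, 173 and 163 CPM in npl3-F245I, against 232 to 258 CPM in the NPL3 libraries, with folds of 1.44, 1.19 and 1.46 lower. COR1 was 1.46-fold, 1.204-fold and 1.21-fold lower. RIP1 was lower in npl3-F162Y (log2 fold change -0.41) and the linker mutant (-0.17) but did not pass in npl3-F245I (-0.07). The call in the linker mutant was lost when only the compared groups were fitted (adjusted p = 0.0944, against 0.000243 to 0.0944 over all alternatives). In complex II none of the 4 members passed in npl3-F245I. Of the ATP synthase, 11 of 12 members were lower in npl3-F162Y and in npl3-F245I and 3 in the linker mutant. ATP17 gave 173, 182 and 172 CPM in npl3-F245I, against 217, 229 and 233 CPM in NPL3.

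CYC7 was higher in each mutant than in NPL3 at 37 °C. It reached 183, 155 and 191 CPM in npl3-F162Y, 155, 136 and 156 CPM in the linker mutant and 181, 153 and 187 CPM in npl3-F245I, against 97.8, 115 and 144 CPM in NPL3. The NPL3 libraries spread widely, and only the linker mutant overlapped them. The folds were 1.48, 1.25 and 1.46 higher (edgeR adjusted p = 0.000251, 0.0272 and 0.000486). The fold in the linker mutant did not pass without NPL3 replicate 1 or 2 or its own replicate 1 or 3, with adjusted p up to 0.148 over the alternatives. NDE1 was higher in npl3-F162Y, at 1474, 1511 and 1475 CPM, and in the linker mutant, at 1405, 1426 and 1421 CPM, against 1122, 1184 and 1141 CPM in NPL3. In npl3-F245I NDE1 gave 1145, 1163 and 1105 CPM, overlapping the NPL3 libraries. NDE2 exceeded NPL3 by 1.502-fold in npl3-F162Y and by 1.54-fold in the linker mutant, and its log2 fold change of 0.18 in npl3-F245I did not pass.

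With the shift to 37 °C members fell more often than they rose in npl3-F162Y, the linker mutant and NPL3, and the split was closer in npl3-F245I. In npl3-F162Y 18 fell and 6 rose (27% and 34.4% of all genes, 61.3% in all). In the linker mutant 16 fell and 7 rose (28.5% and 33.4% of all genes, 61.9% in all), and in npl3-F245I 14 fell and 11 rose (30.8% and 37.8%, 68.6% in all). As shares of the members, 35.9% fell and 28.2% rose in npl3-F245I. In all, 61.5%, 59% and 64.1% of the members were called in the 3 mutants, near the shares over all genes. In NPL3 28 members fell and 3 rose (32.9% and 34.1% of all genes, 67% in all), or 25 and 3 without its replicate 1 at 37 °C. Without the libraries of the other numbering 19, 18, 16 and 25 fell and 8, 10, 13 and 3 rose in npl3-F162Y, the linker mutant, npl3-F245I and NPL3, and with only the compared groups fitted 22, 18, 18 and 22 fell and 6, 6, 12 and 3 rose. The medians were -0.14, -0.09 and -0.02 in the mutants, against -0.20 in NPL3, where all genes had medians of 0.04, 0.03, 0.04 and 0.01. CYC1 was the member that fell furthest in every strain, to 290, 281 and 297 CPM in npl3-F162Y, 382, 358 and 364 CPM in the linker mutant, 304, 281 and 299 CPM in npl3-F245I and 385, 372 and 395 CPM in NPL3. The folds against 30 °C were 1.69, 1.59, 1.75 and 1.96 lower in this order.

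A small group rose with the shift in all strains. CYC7 rose 2.68-fold in npl3-F162Y, 3.69-fold in the linker mutant, 4.55-fold in npl3-F245I and 3.04-fold in NPL3. NDE2 rose 2.42-fold, 2.59-fold, 2.66-fold and 3.68-fold in the same order. It reached 22.2, 28.1 and 24.4 CPM in npl3-F162Y, 23.6, 26.2 and 26.7 CPM in the linker mutant, 18.0, 19.8 and 18.6 CPM in npl3-F245I and 14.1, 17.2 and 18.4 CPM in NPL3. COX5B, the hypoxic subunit V isoform (YIL111W, chromosome IX, 155222 to 155765, 1 of 3 members with an intron), rose 1.94-fold, 1.96-fold, 2.35-fold and 1.87-fold. Its levels at 37 °C were 80.3, 76.7 and 85.7 CPM in npl3-F162Y, 77.8, 72.8 and 73.0 CPM in the linker mutant, 89.6, 90.8 and 88.1 CPM in npl3-F245I and 66.6, 65.7 and 77.4 CPM in NPL3. Within each strain the 37 °C libraries of these genes lay above all 30 °C libraries. Among the genes that fell, ATP5, which links the 2 parts of the ATP synthase, was 1.38-fold, 1.33-fold, 1.33-fold and 1.29-fold lower at 37 °C.

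**Figure D3:**
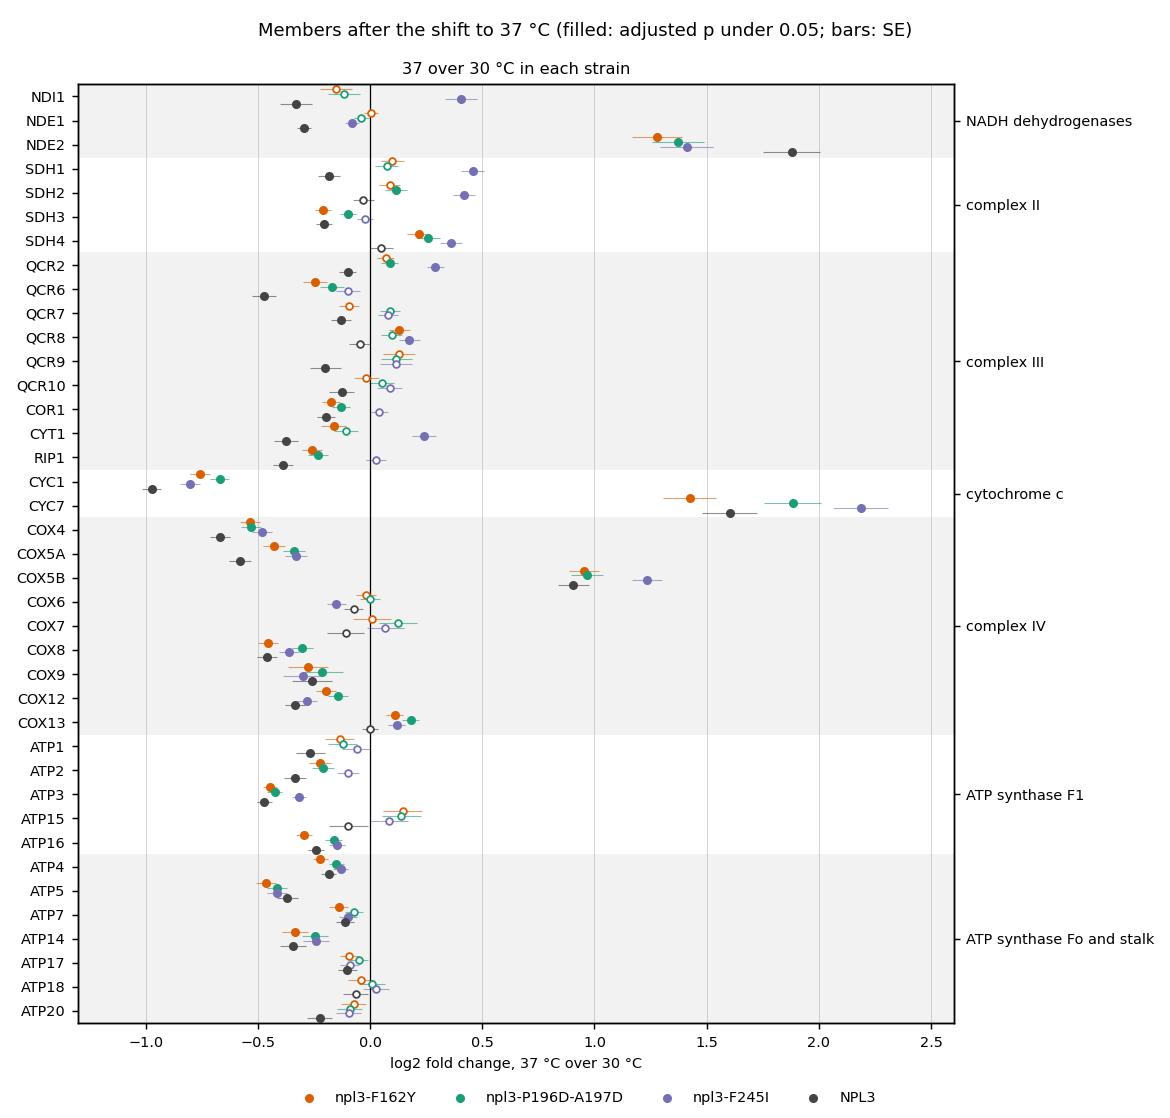
Log2 fold change of each member, 37 °C over 30 °C, in npl3-F162Y, the linker mutant, npl3-F245I and NPL3, with bars for the SE and filled points for an adjusted p under 0.05. CYC7, NDE2 and COX5B lie far to the right in all strains, CYC1 and COX4 to the left, and the NDI1, SDH1 and CYT1 points of npl3-F245I are to the right of 0 while those of NPL3 are to the left.

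Whether the response to 37 °C differed between a mutant and NPL3 was tested by the interaction. In npl3-F245I the response was higher than in NPL3 for 22 members and lower for 1 (16.5% and 12.4% of all genes, 28.9% in all), with a median difference of 0.19 in log2, against 0.01 over all genes. In the linker mutant it was higher for 10 and lower for 0 (5.57% and 5.08%, 10.6% in all). In npl3-F162Y it was higher for 7 and lower for 1 (11.8% and 8.68%, 20.5% in all). The total in npl3-F162Y, 20.5% of the members, was the same as the share over all genes. The medians were 0.15 and 0.11 in these mutants, against 0.02 over all genes in each. All these differences share the NPL3 libraries, and each contains the difference at 30 °C with its sign turned. Without NPL3 replicate 1 at 37 °C the responses were higher for 21, 10 and 6 members and lower for 1 each in npl3-F245I, the linker mutant and npl3-F162Y. Without the libraries of the other numbering they were higher for 20, 9 and 6 and lower for 0, 0 and 1. The total of 10 in the linker mutant was 6 without NPL3 replicate 1 at 30 °C or NPL3 replicate 2 at 37 °C, 5 without its own replicate 1 at 30 °C or replicate 1 at 37 °C, and 6 without its replicate 3 at 30 °C. The total of 8 in npl3-F162Y was 5 without its replicate 2 and 4 without its replicate 3, both at 30 °C.

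The npl3-F245I differences were spread unevenly over the complexes. All 9 members of complex III and all 4 of complex II had a higher response than in NPL3, as did both cytochrome c genes, 3 of 9 in complex IV and 2 of 12 in the ATP synthase. Of the 3 NADH dehydrogenase genes 2 had a higher and 1 a lower response. Over all genes 16.5% had a higher and 12.4% a lower response. The 2 of 12 in the ATP synthase lay near the share over all genes. No test compared these shares. NDI1 gave 283, 264 and 273 CPM in npl3-F245I at 37 °C, against 210, 215 and 194 CPM at 30 °C. In NPL3 it gave 213, 254 and 294 CPM at 37 °C, against 335, 315 and 307 CPM at 30 °C. NDI1 rose 1.32-fold in npl3-F245I and fell 1.26-fold in NPL3, and the difference was 0.73 in log2 (SE 0.101, adjusted p = 8.75e-06 by edgeR).

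SDH1 of npl3-F245I stood at 334, 318 and 301 CPM at 37 °C, above its 30 °C libraries, and the NPL3 libraries stood at 318, 358 and 356 CPM at 37 °C, below those at 30 °C. The difference between the responses was 0.64 (adjusted p = 3.42e-07 by edgeR). CYT1 (YOR065W, chromosome XV, 447439 to 448368) was at 406, 437 and 378 CPM in npl3-F245I at 37 °C, against 351, 347 and 338 CPM at 30 °C. In NPL3 it was at 376, 432 and 394 CPM at 37 °C, against 524, 522 and 514 CPM at 30 °C. Their responses differed by 0.62 (adjusted p = 1.96e-06 by edgeR). In these 3 genes the mutant and NPL3 moved in opposite directions, and the call held under all alternatives run. Without NPL3 replicate 1 at 37 °C the differences were 0.62, 0.59 and 0.57 for NDI1, SDH1 and CYT1. NDE2 had a weaker rise in npl3-F245I than in NPL3, by 0.47 (log2 difference -0.47, adjusted p = 0.0483 by edgeR), which did not pass in 13 of the 22 alternatives (adjusted p from 0.0109 to 0.231).

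In the other mutants the largest positive differences were smaller than in npl3-F245I. The negative difference of NDE2 was larger in npl3-F162Y (-0.60, against -0.47 in npl3-F245I). QCR9, a small subunit of complex III with an intron (YGR183C, chromosome VII, 859063 to 859476), fell with the shift in NPL3 and did not pass in npl3-F162Y and the linker mutant, and the responses differed by 0.33 and 0.32. Its libraries gave 211, 183 and 220 CPM in npl3-F162Y and 249, 211 and 219 CPM in the linker mutant at 37 °C, against 220, 195 and 242 CPM in NPL3. The groups overlapped at 37 °C, and at 30 °C both mutants lay below NPL3 in every library. The QCR9 difference was lost in 5 of 22 alternatives for npl3-F162Y (adjusted p up to 0.0622) and in 10 of 22 for the linker mutant (up to 0.124). CYC1 fell less in the linker mutant than in NPL3, by 0.30 in log2 (adjusted p = 0.00182 by edgeR). In npl3-F162Y the rise of NDE2 was weaker (log2 difference -0.60, adjusted p = 0.0139 by edgeR), a call lost in 3 of 22 alternatives, among them without NPL3 replicate 1 at 30 °C (adjusted p up to 0.0807). In the same mutant NDE1, which fell in NPL3, did not pass (difference of the responses 0.30, adjusted p = 5.68e-05 by edgeR).

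The isoform pairs were followed as the ratio of the aerobic to the hypoxic gene per kilobase of coding length. COX5A (YNL052W, chromosome XIV, 531725 to 532186) over COX5B was 2.59, 2.78 and 2.55 in npl3-F162Y, 3.47, 3.46 and 3.69 in the linker mutant and 2.89, 2.61 and 2.79 in npl3-F245I at 37 °C, against 4.20, 4.01 and 3.67 in NPL3. At 30 °C it was 6.87, 7.46 and 6.32, then 8.95, 8.53 and 8.91, then 7.74, 8.14 and 8.62 in the same mutants, against 10.4, 11.5 and 11.5 in NPL3. All mutant libraries lay below those of NPL3 except for the linker mutant at 37 °C, which overlapped it. CYC1 over CYC7 averaged 1.71, 2.57 and 1.77 in npl3-F162Y, the linker mutant and npl3-F245I at 37 °C, against 3.43 in NPL3. At 30 °C its means were 7.71, 15.1 and 14.02 in the mutants, against 20.3 in NPL3. In each strain both ratios were lower in every 37 °C library than in any 30 °C library.

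An exact two-sided permutation test of the log2 ratio gave p = 0.1, the smallest value 3 against 3 libraries allow, in 19 of 20 comparisons (adjusted p = 0.105 over the 20). The other, COX5A over COX5B in the linker mutant and NPL3 at 37 °C, gave an exact p = 0.2. By gene, COX5A fell 1.44-fold, 1.23-fold and 1.33-fold in the mutants at 30 °C. COX5B was higher in npl3-F162Y at 30 °C by 0.16 in log2 (adjusted p = 0.0456 by edgeR), a call lost in 6 of 16 alternatives, among them without NPL3 replicate 2 or 3 or the mutant's replicate 1 or 3 (adjusted p up to 0.179). At 37 °C COX5B exceeded NPL3 by 1.16-fold in npl3-F162Y and by 1.28-fold in npl3-F245I. The npl3-F162Y libraries overlapped those of NPL3 there (76.7 CPM in its replicate 2, against 77.4 CPM in NPL3 replicate 3), and the npl3-F245I libraries did not.

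**Figure D4:**
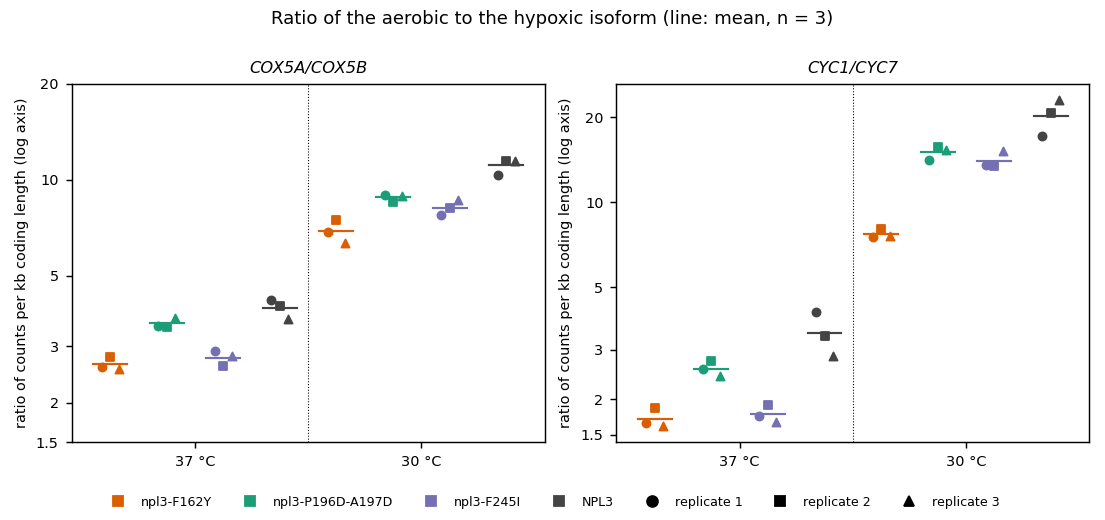
Ratio of COX5A to COX5B (left) and of CYC1 to CYC7 (right) per kilobase of coding length on a log axis, for each library, with 37 °C left and 30 °C right in each panel and a line at the mean of 3. Ratios are highest in NPL3 at 30 °C, at means of 11.1 and 20.3, and lowest at 37 °C in npl3-F162Y and npl3-F245I.

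The mutants were also set against each other. More members were higher than lower in the linker mutant against either motif mutant, at both temperatures. Against npl3-F162Y, 17 members were higher and 1 lower in the linker mutant at 30 °C (14.1% and 11.1% of all genes, 25.2% in all), and 26 higher and 0 lower at 37 °C (10.4% and 8.93%, 19.3% in all). Against npl3-F245I, 31 were higher and 0 lower at 30 °C (16.6% and 11.6%, 28.2% in all), and 26 higher and 1 lower at 37 °C (20.7% and 17%, 37.7% in all). At 30 °C the totals of 18 and 31 were 10 and 20 without linker mutant replicate 2, and the total of 18 was 29 with only the compared groups fitted. SDH1 was the member with the largest difference between the linker mutant and npl3-F245I at 30 °C, 1.48-fold higher (edgeR adjusted p = 9.17e-09). CYC7 was the member lower in the linker mutant than in npl3-F162Y at 30 °C (1.63-fold), and COX5B the one lower than in npl3-F245I at 37 °C (1.202-fold).

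The motif mutants were then set against one another. In npl3-F245I, 0 members were higher and 11 lower than in npl3-F162Y at 30 °C (16.8% and 16.9% of all genes, 33.7% in all), and 10 were higher and 5 lower at 37 °C (18.5% and 19.7%, 38.2% in all). In all, 28.2% of the members were called at 30 °C and 38.5% at 37 °C, the latter close to the share over all genes. With only the compared groups fitted 3 were higher and 25 lower at 30 °C, and without the libraries of the other numbering 7 were higher and 6 lower at 37 °C. CYC7, NDE2 and NDE1 were lower in npl3-F245I at 30 °C, 1.73-fold, 1.45-fold and 1.23-fold. At 37 °C NDI1, RIP1 and COR1 were 1.29-fold, 1.26-fold and 1.203-fold higher in npl3-F245I, and NDE2, NDE1 and COX6 were 1.32-fold, 1.31-fold and 1.23-fold lower. COX6 gave 189, 199 and 195.9 CPM in npl3-F245I, against 244, 231 and 244 CPM in npl3-F162Y.

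**Figure D5:**
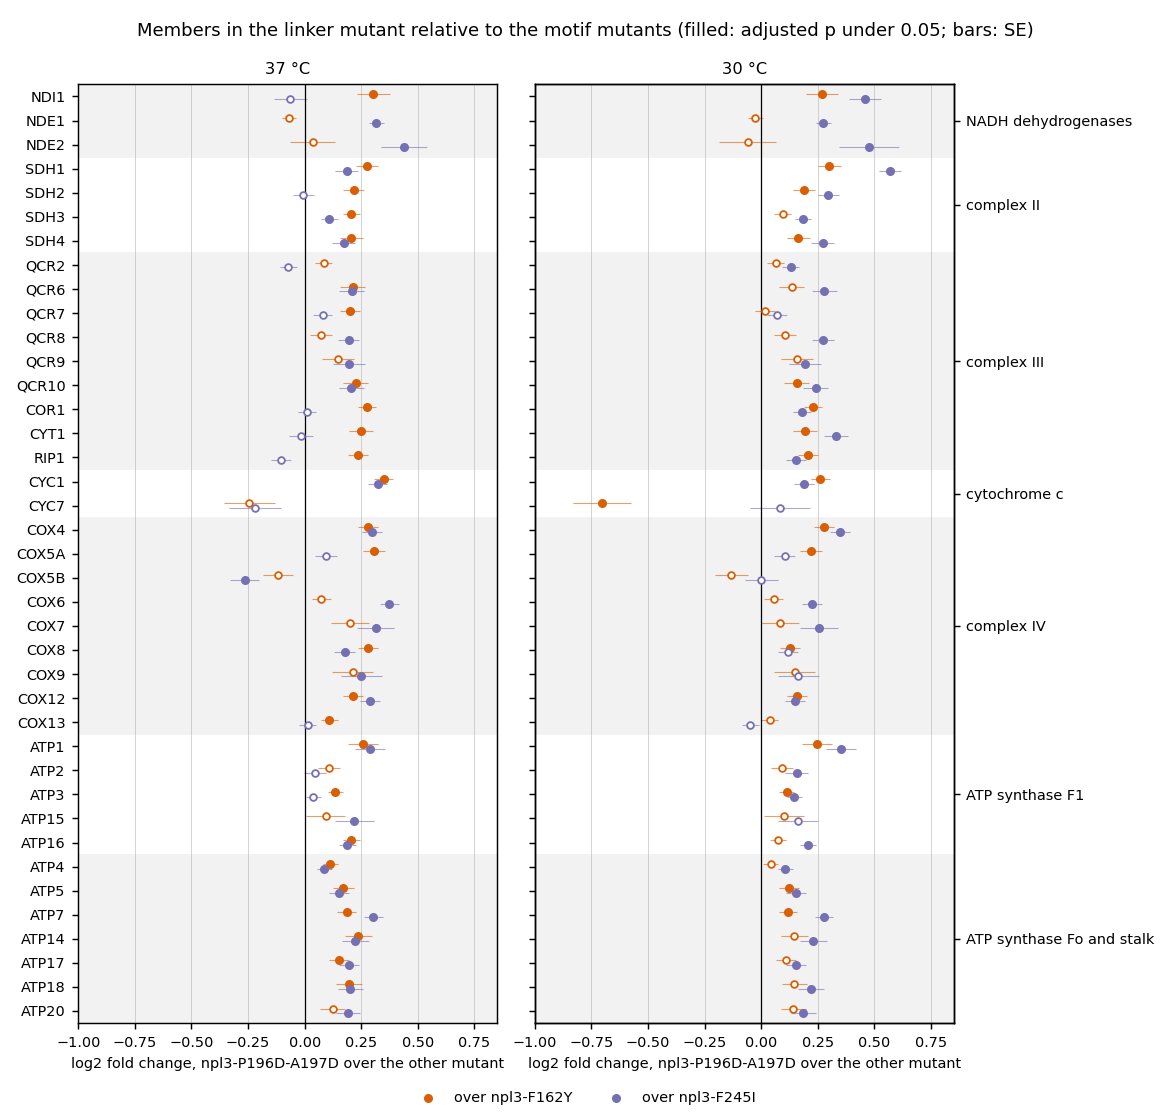
Log2 fold change of each member in the linker mutant over npl3-F162Y and over npl3-F245I, at 37 °C (left) and 30 °C (right), with bars for the SE and filled points for an adjusted p under 0.05. Most points lie right of 0, with medians of 0.20 and 0.19 at 37 °C and 0.13 and 0.19 at 30 °C, and CYC7 lies left of 0 against npl3-F162Y.

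Other genes of the pathway were counted from lists made for it, to be read at 30 °C against 38.6%, 31.7% and 33.3% of all genes lower and 29.8%, 24.1% and 24.5% higher in npl3-F162Y, the linker mutant and npl3-F245I, with an all-gene median of -0.04 in each. Of 57 tested factors that assemble the chain or express its mitochondrial subunits, 45, 39 and 49 were lower and 5, 2 and 1 higher at 30 °C in npl3-F162Y, the linker mutant and npl3-F245I, with medians of -0.39, -0.27 and -0.38. COX23, a copper-related assembly factor of complex IV, averaged 20.2 ± 1.77 CPM in npl3-F162Y and 39.2 ± 1.18 CPM in NPL3 (SD, n = 3). PET309, which serves the translation of the mitochondrial COX1 mRNA, was higher in npl3-F162Y, at 118 ± 4.17 CPM, against 81.3 ± 5.27 CPM in NPL3. Mitochondrial ribosomal protein genes, which make the partner subunits of the members, were lower in 71, 70 and 72 of 72 cases and higher in none, with medians of -0.61, -0.34 and -0.48. At 37 °C 59, 47 and 59 of these 72 were lower, against 30.8%, 22.4% and 26.5% of all genes. MRPL8, of the large ribosomal subunit, averaged 70.2 ± 1.19, 97.1 ± 3.95 and 84.7 ± 1.97 CPM at 30 °C in npl3-F162Y, the linker mutant and npl3-F245I and 148 ± 1.39 CPM in NPL3.

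Lists next to the chain had calls in both directions. At 30 °C 38.6%, 31.7% and 33.3% of all genes were lower and 29.8%, 24.1% and 24.5% higher in the 3 mutants (median -0.04 in each), and some of these lists lay near or below those shares. Among 21 citric acid cycle genes 8, 3 and 12 were lower and 4, 5 and 3 higher in npl3-F162Y, the linker mutant and npl3-F245I at 30 °C, with medians of -0.06, 0.02 and -0.13. Of 11 ubiquinone synthesis genes 7, 7 and 9 were lower and 0, 1 and 0 higher, and COQ1 was 1.54-fold, 1.32-fold and 1.57-fold lower. Of 8 heme synthesis genes 5, 4 and 5 were lower and 3, 2 and 3 higher, and HEM4 was 2.55-fold, 1.73-fold and 2.28-fold higher. Of 3 relatives of the SDH and COX genes 2 were higher in each mutant: SHH3, a homolog of SDH3, was 3.99-fold, 3.06-fold and 2.72-fold higher, on 1.87 ± 0.472 CPM in NPL3, and YJL045W, a homolog of SDH1, 2.00-fold, 1.602-fold and 1.36-fold. INH1, the inhibitor of the ATP synthase, was 1.90-fold, 1.55-fold and 2.02-fold lower. Of the lists' other groups, 2 of 4 electron donor genes, such as GUT2, were higher in each mutant, and of 14 mitochondrial carrier genes 4, 5 and 3 were higher and 5, 3 and 8 lower (medians 0.00, -0.01 and -0.15).

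Regulators known for these genes were counted too. HAP4, whose product is the activating subunit of Hap2/3/4/5, gave 309, 300 and 311 CPM in npl3-F245I at 37 °C, against 142, 189 and 236 CPM in NPL3. The NPL3 libraries were spread widely, and all lay below those of npl3-F245I (1.62-fold, adjusted p = 3.25e-05 by edgeR, and 1.447-fold without NPL3 replicate 1). The response of HAP4 to the shift was higher in npl3-F245I than in NPL3 by 0.81 in log2 (adjusted p = 0.00077 by edgeR, and 0.65 in log2 without that library), while in npl3-F162Y and the linker mutant it differed by 0.08 in each and did not pass. Without NPL3 replicate 1 at 37 °C the difference was -0.09 in npl3-F162Y and in the linker mutant, and neither passed. ROX1, the hypoxic repressor, stood at 303, 257 and 279 CPM in npl3-F245I at 37 °C, against 154, 146 and 132 CPM in NPL3. At 30 °C HAP3, the DNA-binding partner in the same complex, was 1.59-fold, 1.37-fold and 1.43-fold lower in npl3-F162Y, the linker mutant and npl3-F245I, and HAP4 passed in none of them. Their part in the members' levels was not tested. Over 15 such regulators, 2, 2 and 4 were higher and 8, 6 and 6 lower at 30 °C (median -0.11 in each), and 3, 1 and 7 were higher and 4, 1 and 2 lower at 37 °C. Of all genes, 29.8%, 24.1% and 24.5% were higher and 38.6%, 31.7% and 33.3% lower at 30 °C (median -0.04 in each). At 37 °C 28%, 21.3% and 24% of all genes were higher and 30.8%, 22.4% and 26.5% lower. In a list of 6 genes known for their oxygen response, 4, 3 and 4 were higher and 1 lower in each mutant at 30 °C (medians 1.10, 0.20 and 0.22).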

How the data were processed

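The deposited table held whole-number counts per gene, which, per the submitters' processing notes, the authors made with FastQC, STAR 2.7.2a, HTSeq and build R64. The sources used here do not give the counting strand, although the kit was stranded per the labels' protocols. From these counts, 5 summary rows were dropped (4.39 to 6.51% of reads lay in no feature), and edgeR 4.0.16 in R 4.3.3 was used with TMM scaling, its low-count filter and 1 mean per group over all 24 libraries. Quasi-likelihood F-tests of 19 comparisons were adjusted by Benjamini-Hochberg over 6518 genes at 0.05, with a common biological coefficient of variation of 5.26% and 16 residual degrees of freedom. The script was checked on simulated counts.

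CPM use TMM-scaled library sizes, and levels between genes are per kilobase of coding length. Isoform ratios were tested by exact permutation over libraries. Members and lists were chosen with earlier results of these data known. Genes to describe were taken in each comparison from the 3 largest called rises and falls at a mean of at least 10 CPM. The isoform pairs and up to 2 genes each way from each list were added. Not all genes under this rule are described in every comparison. ATP3, for example, was 1.34-fold lower at 37 °C than at 30 °C in the linker mutant and is not described above. Values beyond this rule, such as those of ATP1, ATP15, COX6, COX9, QCR8, INH1, HAP3, HAP4 and ROX1, were chosen after their values were seen. Alternatives were DESeq2 1.42.0, RLE scaling, other filters, a stricter threshold, the compared groups alone, replicate blocks, the sample number series as a term or left out, and each library left out. HAP4 and ROX1 were refitted without NPL3 replicate 1 at 37 °C, which was chosen after seeing the data. Same-numbered libraries correlated above 0.1 in every pair for 1 of 16 comparisons, npl3-F162Y with NPL3 at 37 °C (lowest r = 0.2097 across genes). The labels give no pairing. Replicate 2 at 37 °C, with r = 0.5456 in that comparison, is also the library of the other number series. In the other comparisons between strains at 37 °C its r lay between 0.3439 and 0.5336. A pairing by replicate number and an effect of the number series therefore cannot be told apart at 37 °C.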

Additional observations from a re-analysis of the deposited data

Results flagged for a closer look

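Some responses to the shift that differed from that of NPL3 by the interaction test (edgeR, adjusted over all genes) are listed here. They are up to 3 of the largest called differences each way, at a mean of at least 10 CPM. In all, 23, 8 and 10 members were called in npl3-F245I, npl3-F162Y and npl3-P196D-A197D. No outlier test was run on single genes, since groups of 3 libraries are too small for it. In npl3-F245I the log2 differences were 0.73 for NDI1, 0.64 for SDH1, 0.62 for CYT1 and -0.47 for NDE2. In npl3-F162Y, where 20.5% of the members and 20.5% of all genes were called, they were -0.60 for NDE2, 0.33 for QCR9, 0.30 for NDE1 and 0.28 for SDH1. In npl3-P196D-A197D they were 0.32 for QCR9, 0.30 for QCR6 and 0.30 for CYC1.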

How the results depend on the processing

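None of the 437 calls over the members and comparisons changed sign under the alternatives run; members not called were not followed. Of these calls 11 were lost with DESeq2, 23 with RLE scaling, 48 with a minimum mean of 10 CPM, 8 with no filter, 69 when only the compared groups were fitted, 2 with the number series as a term, 30 without the libraries of the other series and 103 at an adjusted p of 0.01. Of 2868 calls with 1 library left out, 356 were lost. At 0.01 the members called were 6 for npl3-P196D-A197D and NPL3 at 37 °C, 10 for npl3-P196D-A197D and npl3-F162Y at 30 °C, and 2, 2 and 12 for the interactions of npl3-F162Y, npl3-P196D-A197D and npl3-F245I. The npl3-F162Y interaction gave 5 with RLE scaling and 5 with the 10 CPM minimum. With only the compared groups there were 18 for npl3-F162Y and 4 for npl3-P196D-A197D against NPL3 at 37 °C, 3 and 2 for their interactions, and 29 for npl3-P196D-A197D and 28 for npl3-F245I against npl3-F162Y at 30 °C. The number series as a term gave 17 for the npl3-P196D-A197D interaction.

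A replicate block over all libraries lost 3 of the 437 calls and a block within temperature 9; within temperature the npl3-P196D-A197D interaction gave 16 calls, and for npl3-F162Y and NPL3 at 37 °C, where the numbers correlated, the block gave 33 calls in place of 32. With 1 library left out the calls ranged from 4 to 11 for the npl3-F162Y interaction and 5 to 14 for that of npl3-P196D-A197D, 7 to 15 for npl3-P196D-A197D and NPL3 at 37 °C, 10 to 17 for npl3-P196D-A197D and npl3-F162Y at 30 °C and 20 to 31 for npl3-P196D-A197D and npl3-F245I at 30 °C. The cause of these shifts was not tested, beyond the fewer samples or the stricter threshold by construction. Depth limits NDE2 most, at 106 to 122 counts per NPL3 library at 30 °C.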

Other observations

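The lists beside the members were also counted for their response to the shift, to be read against the shares over all genes. With the shift 27%, 28.5%, 30.8% and 32.9% of all genes were lower in npl3-F162Y, npl3-P196D-A197D, npl3-F245I and NPL3. In the same order 34.4%, 33.4%, 37.8% and 34.1% were higher. By the interaction 11.8%, 5.57% and 16.5% of all genes had a higher response in the mutants, and 8.68%, 5.08% and 12.4% a lower one. Of 72 mitochondrial ribosomal protein genes, 19, 42, 28 and 66 were lower and 6, 0, 1 and 0 higher at 37 °C than at 30 °C in npl3-F162Y, npl3-P196D-A197D, npl3-F245I and NPL3. Their response was higher than in NPL3 for 57, 23 and 50 genes and lower for 0 in each mutant (edgeR's interaction test, adjusted over all genes), with median differences of 0.31, 0.18 and 0.24 in log2, against 0.02, 0.02 and 0.01 over all genes. Of the 57 assembly factors, 4, 9, 4 and 22 were lower and 31, 25, 30 and 9 higher at 37 °C in the same order of strains. Their response was higher than in NPL3 for 27, 5 and 28 and lower for 0 in each. These differences share the NPL3 libraries.

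Summed over the 39 members, the level at 37 °C was 11510 ± 20.8, 12780 ± 110 and 11610 ± 142 CPM in npl3-F162Y, npl3-P196D-A197D and npl3-F245I, against 12700 ± 382 CPM in NPL3 (SD, n = 3 each). At 30 °C it was 12600 ± 108, 13720 ± 385, 11820 ± 95.4 and 15350 ± 131 CPM in the same order.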
